A study of Mus musculus with 30 samples.

Results

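The SoxE group of transcription factors is made up of Sox8, Sox9 and Sox10, and all 3 genes were measured. They were taken by symbol from 14997 genes of midbrain floor plate cells and from 26005 genes of cultured spheres. SoxE proteins bind DNA through a high mobility group domain and share much of it. In the central nervous system Sox9 acts in neural stem cells, in the change from neuron to glia production and in astrocytes. Sox10 acts in neural crest, Schwann cells and oligodendrocytes, where it switches on myelin genes, and Sox8 overlaps with both in glia. Outside the brain Sox9 is the main regulator of cartilage genes.

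The captured libraries hold polyadenylated RNA of floor plate cells cut out by laser from mice of genotype Lmx1aCreERT2; R26TRAPC. Embryonic days 11 (E11, n = 4), 13 (E13, n = 5) and 18 (E18, n = 5) and postnatal day 70 (P70, n = 6) were sampled. Lmx1aCreERT2 is a tamoxifen-inducible Cre under control of Lmx1a, a floor plate gene, and every captured group carries it. The remaining libraries are adult spheres grown in vitro, 5 named MB and 5 named FB, with no genotype in their labels. The labels do not spell out these names. The design text mentions ependymal spheres from the midbrain aqueduct and neurospheres from the lateral ventricle. No label ties a library to an animal or a culture, so p-values measure only the spread between these samples.

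The deposited captured values behave like RPKM and are called units here, so genes can be compared with each other per length. Genes whose mean at an age was under 1 unit are not listed at that age. Sphere levels are counts scaled to library size (CPM), not per length. Relative depth, read from the steps between low values, was 0.273 to 0.625 of the deepest library at P70 and 0.636 to 1 of it at the other ages. Sphere libraries held 6327198 to 9291311 counts. Of the floor plate markers, Lmx1a ranged over 58.0 to 76.9 units in E11 libraries, 50.5 to 79.0 in E13, 20.7 to 24.2 in E18 and 0.901 to 7.12 in P70 libraries. Corin and Shh, which also mark the floor plate, were not listed at P70, where the ependymal factor Foxj1 measured 138 to 471 units. In spheres, Lmx1a had at most 0.786 CPM in MB and 1.55 CPM in FB, and Foxa2 at most 0.865 and 0.119 CPM. Other floor plate genes were not all this low. Spon1 had 477 ± 44.4 CPM in MB and 91.9 ± 9.23 in FB (SD, n = 5 each). Of 6 floor plate genes tested in spheres, 3 were higher in MB and 0 lower (15.3% and 14.3% over all genes). The floor plate list summed to 631 to 755 CPM in MB and 229 to 249 CPM in FB.

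On mouse build GRCm38, Sox9 (ENSMUSG00000000567.6) lies on the plus strand of chromosome 11 from 112782224 to 112787760. Sox8 (ENSMUSG00000024176.11) lies on the minus strand of chromosome 17 from 25565892 to 25570686, and Sox10 (ENSMUSG00000033006.11) on the minus strand of chromosome 15 from 79154908 to 79165240. Sox8 overlaps 1 annotated gene, 2810468N07Rik, whose reads cannot be told from its own because the protocol marks no strand. The longest run of identical bases between annotated transcripts was 44 for Sox9 and Sox10, 26 for Sox8 and Sox10 and 23 for Sox9 and Sox8. Of the 3 members, 1 matched the RefSeq promoter table used here, Sox8, and Sox9 and Sox10 did not. The promoter of Sox8 (RefSeq, GRCm38.p6, chr17:25570637-25570936, minus strand, 250 bases before to 50 after the start) is therefore the one shown. Capitals mark a CACGTG E-box and the GC boxes GGGCGG.
Sox8 promoter: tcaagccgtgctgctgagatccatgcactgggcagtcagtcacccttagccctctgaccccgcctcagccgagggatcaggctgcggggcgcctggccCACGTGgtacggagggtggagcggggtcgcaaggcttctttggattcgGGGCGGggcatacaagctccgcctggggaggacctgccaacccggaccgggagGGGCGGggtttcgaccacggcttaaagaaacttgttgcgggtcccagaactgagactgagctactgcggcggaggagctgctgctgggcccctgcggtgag
Its GC content was 66.3%, against a median of 52.7% over promoters. Searched on both strands, it held GGGCGG in 2 places, CACGTG in 1 and the Nfi half-site TTGGCA in 1, with no overlap between these motifs. Of 32851 promoters of that length, 35.7% held GGGCGG, 7.15% held CACGTG and 14.1% held TTGGCA. The Sox-type letters ACAAAG and ACAAT were not in this window and were in 18.7% and 31.0% of promoters.

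Sox9 was the most abundant SoxE gene listed at every captured age and had its highest levels at P70. At E11 it measured 37.3, 61.1, 53.0 and 74.8 units (56.5 ± 15.7, SD, n = 4). At E13 it measured 120.0, 66.1, 148, 65.1 and 129 units (106 ± 37.9, n = 5). The E13 values fall into a high set of 3 and a low pair that lies among the E11 values. At E18 it measured 264, 154, 119.9, 108 and 134 units (156 ± 62.7, n = 5), with 1 library above the other 4, which lie within or just above the E13 range. At P70 the lowest, median and highest values were 293, 422 and 578 units (416 ± 112, n = 6), above every E18 library. These P70 values rest on 3143 to 6563 recovered reads a library.

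Sox9 was 0.85 higher on the log2(value + 1) scale in E13 than in E11 (SE 0.29, limma adjusted p = 0.0415), where 20.4% of 11567 genes passed (9.26% higher and 11.2% lower). This call was lost when any of E11 replicates 1, 2 and 3 or E13 replicates 1, 3 and 5 was left out, with log2 differences of 0.67, 0.90, 0.84, 0.79, 0.71 and 0.76 in that order. Over the 17 other settings its adjusted p ranged from 0.00178 to 0.163. Between E18 and E13 the difference of 0.56 did not pass (SE 0.27, limma adjusted p = 0.0973). Sox9 rose by 1.44 in P70 against E18 (SE 0.26, limma adjusted p = 0.000179), where 40.7% of 12353 genes passed (16.8% higher and 23.9% lower). Over the whole span it was 2.86 higher in P70 than in E11 (SE 0.28, limma adjusted p = 1.63e-08), with 64.6% of 11117 genes past the threshold (24.5% higher and 40.1% lower). All genes together had a median of -0.30 in P70 against E11, which became -0.07 with each library scaled to a common median ratio, and Sox9 then stood at 3.12. In bulk samples, more cells of a type and more RNA per cell cannot be told apart.

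**Figure D1:**
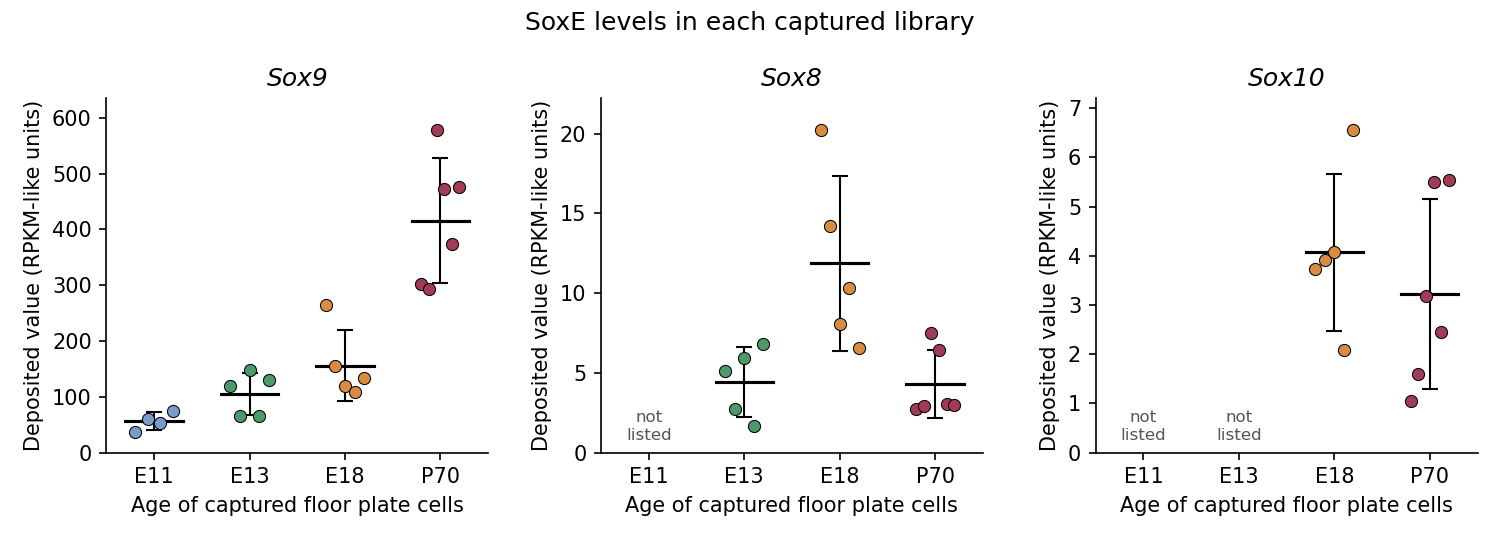
Deposited values (RPKM-like units, y axis from 0, a scale of its own in each panel) of Sox9, Sox8 and Sox10 by age. Points are libraries (n = 4, 5, 5 and 6), bars the mean and whiskers the SD; the 6 P70 libraries lie above all others for Sox9, while Sox8 is highest at E18.

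Sox8 had its highest levels at E18, and its level at P70 was near that of E13. It was not listed at E11. At E13 it measured 5.10, 2.72, 5.93, 1.64 and 6.83 units (4.44 ± 2.19, SD, n = 5). At E18 it measured 20.2, 14.2, 8.03, 10.3 and 6.56 units (11.9 ± 5.48, n = 5), and only the lowest E18 value lies within the E13 range. At P70 the lowest, median and highest values were 2.74, 3.03 and 7.53 units (4.28 ± 2.13, n = 6), and 1 P70 library lies above the lowest E18 library. At P70 these values rest on 22 to 47 recovered reads, against 83 to 227 at E18.

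Sox8 rose by 1.25 on the log2(value + 1) scale in E18 against E13 (SE 0.35, limma adjusted p = 0.00685), where 47.0% of 11797 genes passed (22.2% higher and 24.8% lower). It fell by 1.27 in P70 against E18 (SE 0.34, limma adjusted p = 0.00567). Both calls held in each of the alternative settings, with adjusted p up to 0.0251 for E18 against E13 and up to 0.0219 for P70 against E18. The comparisons share the E18 libraries. All genes together had a median of -0.14 in P70 against E18. After scaling each library to a common median ratio this became 0.01, Sox9 stood at 1.61 and Sox8 at -1.13, and higher genes made up 54.7% of 4779 calls, against 41.3% of 5024 calls without that scaling.

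Sox10 was the least abundant SoxE gene at E18 and had a lower mean than Sox8 at P70. It was not listed at E11 or E13. At P70 the lowest, median and highest values were 1.05, 2.82 and 5.54 units (3.22 ± 1.92, SD, n = 6), resting on 8 to 50 recovered reads. At E18 it measured 3.74, 3.92, 4.07, 2.09 and 6.55 units (4.07 ± 1.6, n = 5), resting on 24 to 75 reads. The groups overlap widely. The log2 difference of P70 from E18 was -0.34 (SE 0.34, limma adjusted p = 0.461), with a 95% interval of -1.07 to 0.39, which spans higher and lower levels, so no difference was detectable at this depth.

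The balance among the members moved towards Sox9 at P70. Sox9 made up a median of 98.4% of the summed SoxE level at P70 and 90.8% at E18. Sox8 made up 0.933% at P70 and 7.02% at E18, and Sox10 0.595% at P70 and 2.27% at E18. The log2 ratio of Sox9 to Sox8, with 1 unit added to each, was 6.35 ± 0.33 at P70 and 3.63 ± 0.35 at E18 (SD, n = 6 and 5). The groups do not overlap, and the difference of 2.71 had p = 0.00433 by an exact two-sided permutation test, the smallest that these numbers allow (adjusted p = 0.00866 over 4 ratio tests). The ratio of Sox10 to Sox9 was -6.71 ± 0.44 at P70 and -4.93 ± 0.62 at E18, a difference of -1.78 that also did not overlap (exact permutation adjusted p = 0.00866). Earlier, the Sox9 to Sox8 ratio was 3.63 ± 0.35 at E18 and 4.32 ± 0.23 at E13 (n = 5 each), a difference of -0.69 (exact permutation p = 0.0159, adjusted p = 0.0159).

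In spheres, Sox9 was lower in MB than in FB, while Sox8 and Sox10 did not pass. Sox9 measured 208, 187, 211, 164 and 201 CPM in MB (194 ± 19.2, SD, n = 5), against 284, 313, 298, 272 and 292 CPM in FB (292 ± 15.3, n = 5). Every MB library lies below every FB library. The log2 difference was -0.60 (SE 0.07, edgeR quasi-likelihood adjusted p = 1.52e-06), where 29.6% of 12886 genes passed (15.3% higher and 14.3% lower). It ranged from -0.63 to -0.55 over the alternative settings.

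Sox8 measured 96.1, 79.5, 102, 101 and 154 CPM in MB (107 ± 28.2, n = 5), against 104, 115, 81.3, 114 and 108 CPM in FB (104 ± 13.7, n = 5). The groups overlap, and 1 MB library stands above all others. The difference was 0.02 (SE 0.14, edgeR adjusted p = 0.937) and became -0.15 without that library, replicate 5. Sox10 measured 4.04, 3.38, 3.53, 11.1 and 3.93 CPM in MB (5.20 ± 3.31, n = 5), against 3.72, 6.44, 3.03, 5.01 and 7.03 CPM in FB (5.04 ± 1.71, n = 5). These groups also overlap, and MB replicate 4 lies above the rest. The difference was 0.02 (SE 0.40, edgeR adjusted p = 0.973) and became -0.46 without that library (adjusted p = 0.422). The log2 ratio of Sox9 to Sox8 was 0.89 ± 0.35 in MB and 1.48 ± 0.22 in FB (n = 5 each), a difference of -0.60 (exact permutation p = 0.00794, the smallest possible, adjusted p = 0.0106). That test was added after the data were seen, and since counts are not per length only its difference can be read. Sox9 alone differed by -0.60 and Sox8 by 0.02, so the ratio repeats the Sox9 difference and is no separate result.

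**Figure D2:**
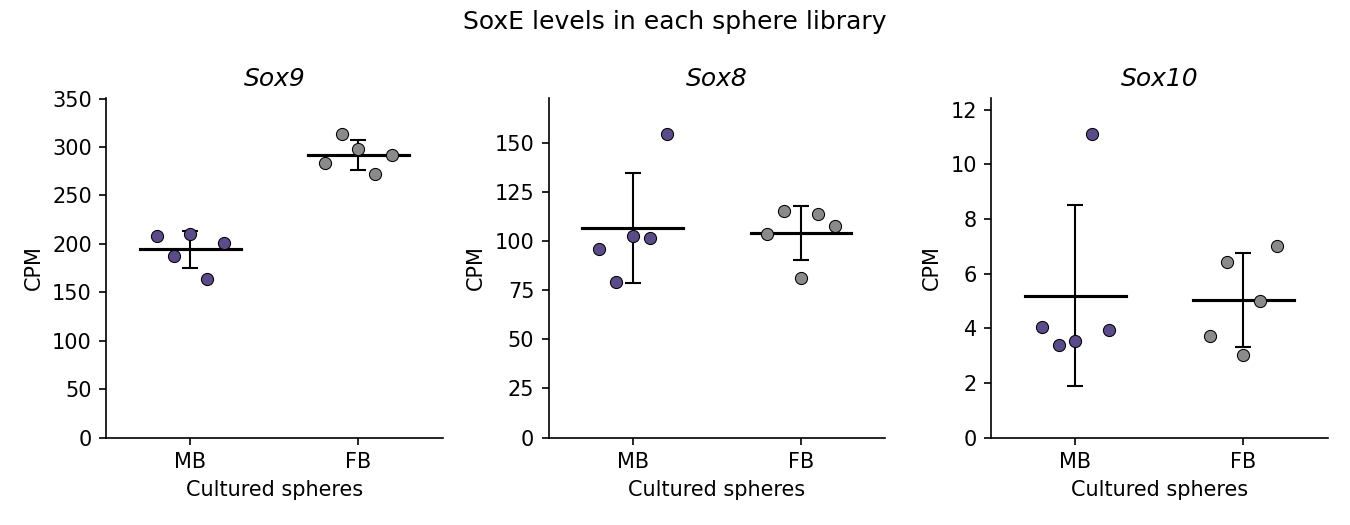
CPM (y axis from 0, a scale of its own in each panel) of Sox9, Sox8 and Sox10 in 5 MB and 5 FB sphere libraries. Points are libraries, bars the mean and whiskers the SD; the groups are apart for Sox9 (194 and 292 CPM on average) and overlap for Sox8 and Sox10.

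Sox8 and Sox9 varied together among libraries of an age. After removing the age mean from log2(value + 1), Pearson's r was 0.855 over the 16 libraries of E13, E18 and P70 (Spearman's rho 0.841). It was 0.945 within E13 (n = 5), 0.808 within E18 (n = 5) and 0.789 within P70 (n = 6). Leaving out any 1 library gave 0.820 to 0.901, and leaving out the 2 farthest in Sox9 gave 0.785. Over these libraries Sox8 ranked 3 of 8529 genes by likeness to Sox9. In the 10 spheres, with the MB and FB means removed, r was 0.139. Libraries share depth and composition, and r with relative depth was -0.339 for Sox9 (20 libraries) and -0.461 for Sox8 (16 libraries). With the median shift of a library's genes it was 0.421 for Sox9 and 0.504 for Sox8, and after median-ratio scaling r between the members was 0.833. The part of depth in this r was not tested further.

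**Figure D3:**
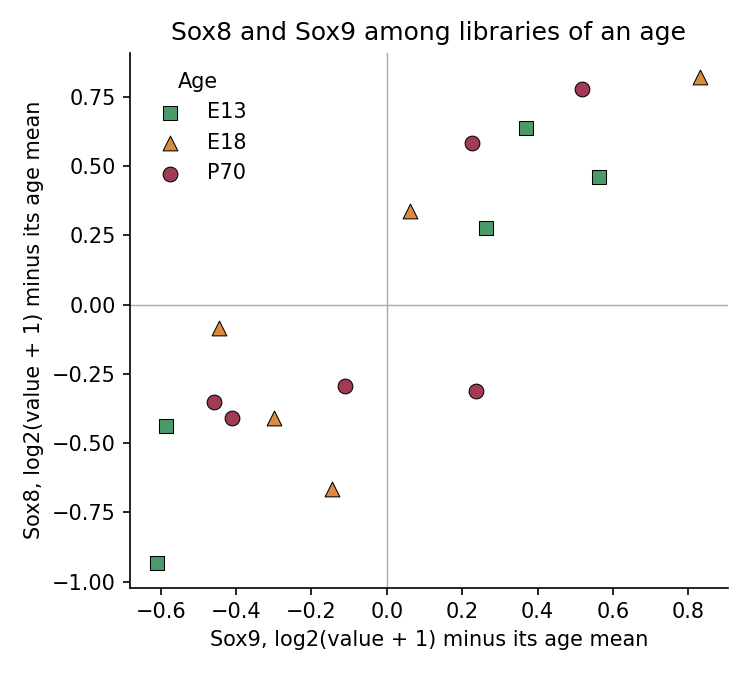
Sox8 against Sox9 in 16 captured libraries, each as log2(value + 1) minus the mean of its age (both axes in log2 units); colour and marker give the age. Libraries high in Sox9 for their age are mostly high in Sox8 (r = 0.855, a description).

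Sox10 varied less closely with the other members. Its r with Sox9 was 0.512 over the 11 libraries of E18 and P70, with 0.795 within P70 (n = 6) and 0.164 within E18 (n = 5). By likeness to Sox10 over these 11 libraries, Sox9 ranked 882 of 8839 genes. The r of Sox10 with Sox8 was 0.165. In spheres Sox10 and Sox9 had r of -0.568, which ranged from -0.727 to 0.234 when 1 library was left out. The last value came without MB replicate 4, so this r rests on that library.

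Fgfr3, Aldh2 and Wnt7b followed Sox9 most closely among libraries of an age. Over 8415 genes listed at all 4 ages, r with Sox9 over the 20 libraries had a median of 0.00611, with 5% of genes below -0.404 and 5% above 0.490. The highest were Fgfr3, a fibroblast growth factor receptor of astrocytes and radial glia (0.844), Aldh2, a mitochondrial aldehyde dehydrogenase (0.829) and the Wnt ligand Wnt7b (0.825). Also among the 8 highest were Cdc42se1, a small effector of Cdc42 (0.799), the collagen receptor kinase Ddr1 (0.788), the histone methyltransferase Kmt2d (0.785) and Axin2, a feedback inhibitor and target of Wnt signalling (0.778). The lowest were the small nucleolar RNA Snora64 (-0.757), the midbrain homeobox gene En1 (-0.703), Tmem263 (-0.679) and the catenin-like Ctnnal1 (-0.670). They were picked from these libraries, so the values are a description. Snora64 averaged 2.89 ± 3.29 units at E18 and 5.15 ± 5.91 at P70 (SD), with a lowest value of 0 at both ages. Its r thus rests partly on values at the floor.

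The genes that followed Sox9 within ages differed in their levels across ages. Ddr1 averaged 212 ± 83.5 units at P70 and 75.1 ± 37.0 at E18 (SD, n = 6 and 5). Wnt7b averaged 8.14 ± 4.29 units at P70 and 25.9 ± 8.66 at E18. Fgfr3 averaged 24.6 ± 9.14 units at P70 and 27.0 ± 29.5 at E18, where 1 library held 79.2 units and the lowest 7.21. Kmt2d averaged 13.6 ± 4.67 units at P70 and 8.83 ± 3.40 at E18. The E18 library that is highest in Sox9 is also the highest of its age in Sox8 and in all 7 genes named above as highest. It stood apart in markers of other cells as well. Its microglia list summed to 147 units, against 445 to 670 in the other E18 libraries, its mature neuron list to 1429 units, against 2127 to 3283, and its endothelial list to 83.9 units, against 139.9 to 145. Its cartilage list was higher, at 205 units, against 48.1 to 61.9. In that list Lect1 averaged 24.8 ± 41.2 units over the E18 libraries, a spread wider than its mean, so 1 gene may weigh on the sum. The part of these lists in the r values was not tested. Without this E18 library, r of the 7 genes ranged from 0.691 to 0.816, and 4 of them were again among the top 8. Over the 20 single libraries left out, 3 to 7 of the 7 were again among the top 8, with 7 after median-ratio scaling and 5 after quantile normalization.

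**Figure D4:**
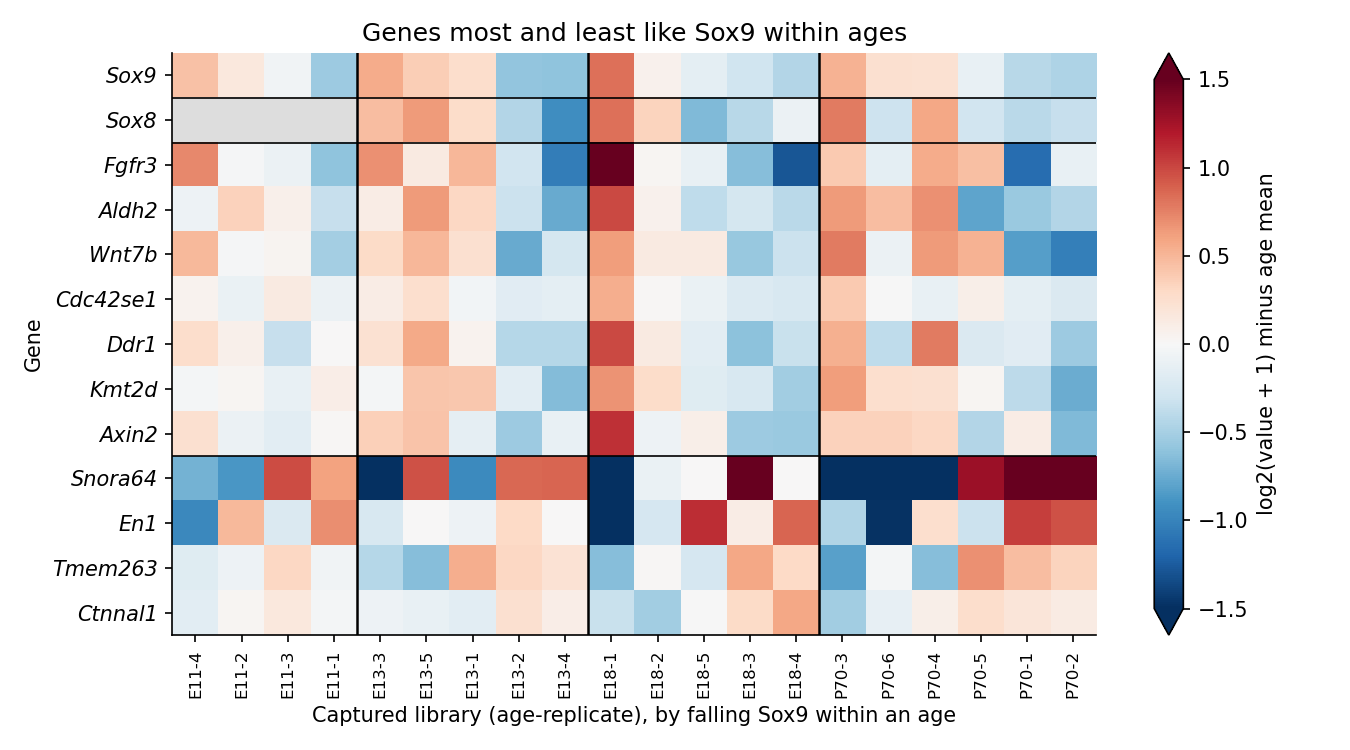
Colour gives log2(value + 1) minus the age mean for Sox9, Sox8, 7 of the 8 genes most like Sox9 and the 4 least like it, in 20 captured libraries ordered by falling Sox9 within each age. Grey marks Sox8 at E11, where it is not listed; rows of the 7 mostly run from red to blue within an age, and those of the 4 the other way.

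The spheres were not used to choose these genes. There, with the MB and FB means removed, r with Sox9 was 0.781 for Wnt7b and -0.0373 to 0.398 for the other 6. Over 9072 genes of the spheres, 5% had an r below -0.561 and 5% above 0.627. Of the 100 genes most like Sox9 in captured libraries, 69 had a positive r in spheres, with a median of 0.266. Of all 6830 genes measured in both, 3624 had a positive r, with a median of 0.0266. The genes most like Sox9 in the spheres themselves were Tmbim1 (0.965), Ube4b (0.955), Cblb (0.947), Dnajc16 (0.939), Zc3h18 (0.930) and Ccdc115 (0.921). Their r with Sox9 in captured libraries ran from -0.323 for Zc3h18 to 0.522 for Tmbim1.

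For Sox8, the highest r over 16 libraries belonged to the glycine transporter Slc6a9 (0.921), Ddr1 (0.884), Fam92b (0.865), Itm2c (0.861) and the plexin receptor Plxnb2 (0.859). Ddr1 stands high for both Sox8 and Sox9. For Sox10, the 5 highest over 11 libraries included Pnmal2 (0.937), Spg7 (0.911), Sult4a1 (0.905) and Rbfox3, a marker of mature neurons (0.905). Rbfox3 itself measured 3.96 ± 2.74 units at P70 and 8.0 ± 2.75 at E18 (SD, n = 6 and 5). Over 8529 genes 5% had an r with Sox8 above 0.617, and over 8839 genes 5% had an r with Sox10 above 0.615. The named genes were picked as the highest in these libraries, so their values are a description.

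By gene group, the mean of 19 astrocyte and glial genes tied to Sox9 or Nfi had an r of 0.633 with Sox9 within ages, with 16 of them positive. Fgfr3 is 1 of these. Cartilage genes had 0.534 (6 members), radial glia and neural stem genes 0.467 (16) and oligodendrocyte genes 0.377 (9). Other Sox genes had 0.333 (8), proneural genes 0.189 (13), neural crest genes 0.167 (3), cell cycle genes 0.112 (15) and ciliary genes 0.0811 (16). Endothelial genes had -0.0491 (6), mature neuron genes -0.0849 (14), floor plate genes -0.147 (14), fibroblast genes -0.154 (3) and microglia genes -0.352 (12). Gene by gene, the median r was 0.294 for astrocyte and glial genes, 0.301 for cartilage genes and 0.154 for radial glia genes. It was -0.143 for ciliary genes, 7 of them positive, and -0.253 for microglia genes, against 0.00611 over the 8415 genes above. Those 8415 genes were filtered by level (5 or more units on average) and by name, and the list genes were not. The lists differ in size, so the r of their means are not ranked.

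Among astrocyte and glial genes, more rose than fell between each pair of neighbouring ages. Of 20 tested between E13 and E11, 13 rose and 1 fell (9.26% higher and 11.2% lower over all genes), with a median log2 difference of 1.29 against -0.04 over all genes. In this list 3 more were listed only at E13. Over all genes, 12381 were listed at E13, 12221 at E11 and 11567 at both. Aldh1l1, an enzyme of folate metabolism that marks astrocytes, reached 96.5 ± 31.7 units at E13, against 3.53 ± 0.67 at E11. Of 23 tested between E18 and E13, 15 rose and 3 fell (22.2% and 24.8% over all genes; median 1.37). Sparcl1, a secreted matrix protein, reached 1905 ± 303 units at E18, against 23.7 ± 9.99 at E13, while Id3, an inhibitor of bHLH factors, fell to 138 ± 28.2 units, against 2004 ± 445 at E13. Of 25 tested between P70 and E18, 10 rose and 6 fell (16.8% and 23.9% over all genes; median 0.57, all genes -0.14). Gfap, the astrocyte filament, measured 111 ± 52.4 units at P70 and 1.65 ± 2.24 at E18, whereas Aldh1l1 fell to 10.7 ± 7.74 units at P70, against 74.4 ± 12.8 at E18.

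Among radial glia and neural stem genes, more fell than rose at P70. Of 18 tested between P70 and E18, 1 rose and 8 fell, where 16.8% of all genes were higher and 23.9% lower. Prom1, a membrane protein of stem cells, measured 25.5 ± 9.95 units at P70 and 596 ± 198 at E18. Fabp7, which carries fatty acids in radial glia, measured 272 ± 86.4 units at P70 and 3211 ± 435 at E18. Of 17 tested between E13 and E11, 6 rose and 1 fell (9.26% and 11.2% over all genes), and of 19 tested between E18 and E13, 8 rose and 5 fell (22.2% and 24.8%).

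Genes of the cartilage program were few in the tests, and their counts are read against the share of all genes that passed. Of 8 tested between E13 and E11, 0 passed in limma (3 at an unadjusted p under 0.05), where 20.4% of all genes passed, and of 10 tested between E18 and E13, 3 rose and 1 fell, near the 47.0% of all genes. The gene that fell was Col2a1, the collagen of cartilage, with 7.66 ± 5.61 units at E18 and 71.3 ± 17.1 at E13, and it was not listed at P70. Between P70 and E18, 1 of 9 rose and 1 fell, where 40.7% of all genes passed. The gene that rose was Lect1, the older symbol of chondromodulin, with 177 ± 92.7 units at P70 and 24.8 ± 41.2 at E18. Acan, which encodes aggrecan, was not listed at any captured age.

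Myelin genes rose at P70 while Sox10 did not pass. Of 15 oligodendrocyte genes tested between P70 and E18, 9 rose and 3 fell (16.8% and 23.9% over all genes), and 10 more were listed only at P70 and 2 only at E18. Over all genes, 13291 were listed at P70, 13340 at E18 and 12353 at both. Of 11 tested between E18 and E13, 6 rose and 2 fell (22.2% and 24.8% over all genes), and of 9 between E13 and E11, 2 rose and 2 fell (9.26% and 11.2%). Mbp, a protein of compact myelin, measured 292 ± 156 units at P70 and 7.74 ± 5.02 at E18 (log2 difference 5.07, SE 0.38, limma adjusted p = 3.23e-09). Mog and Opalin, which mark mature oligodendrocytes, were listed only at P70. Pdgfra, which marks their progenitors, was listed at E18 (5.0 ± 1.55 units) and not at P70. The summed level of this list was 803 to 1584 units at P70 and 450 to 566 at E18, so the groups do not overlap. Whether more oligodendrocytes were captured at P70 was not tested.

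Among libraries of an age, Sox10 varied with this list and with neuronal lists. Its r with the mean of the 15 oligodendrocyte genes was 0.792 over 11 libraries, with 13 of them positive. The 2 P70 libraries with the highest Sox10 (5.54 and 5.51 units) held the highest list sums (1584 and 1475 units), and that with the lowest (1.05 units) held the lowest (803 units). At E18 the library with the highest Sox10 held the lowest sum (450 units). The mean of endothelial genes had an r of 0.623 with Sox10 (7 members), that of mature neuron genes 0.563 (20), that of proneural genes 0.478 (13) and that of floor plate genes -0.465 (14). Gene by gene, the median r was 0.454 for oligodendrocyte genes and 0.457 for mature neuron genes, against -0.0325 over all genes. Markers of several other cell types thus moved with Sox10, and their part in its level was not tested.

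**Figure D5:**
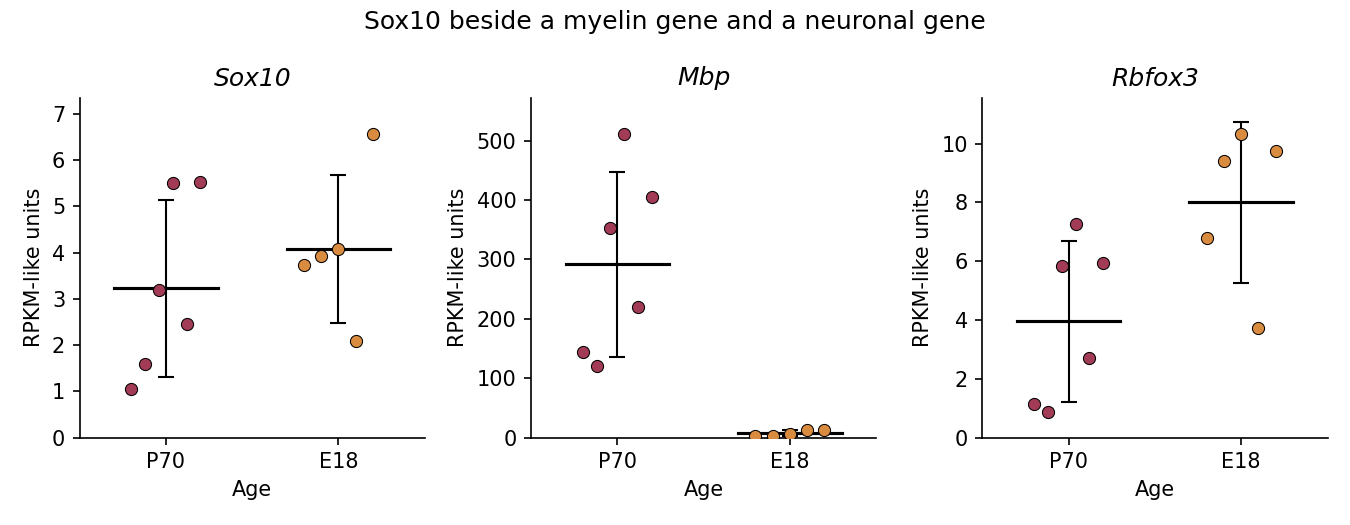
Values in units (y axis from 0, a scale of its own in each panel) of Sox10, the myelin gene Mbp and the neuronal gene Rbfox3 in 6 P70 and 5 E18 libraries. Points are libraries, bars the mean and whiskers the SD; Mbp does not overlap between ages, while Sox10 does.

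In spheres, the myelin gene Mbp was lower in MB, while Sox10 did not pass. Of 24 oligodendrocyte genes tested, 8 were higher in MB and 9 lower, where 15.3% of all genes were higher and 14.3% lower. Mbp had 36.6 ± 16.9 CPM in MB and 220.2 ± 23.1 in FB, while Aspa, an enzyme of acetylaspartate breakdown, had 32.8 ± 1.61 CPM in MB and 2.91 ± 0.995 in FB. Olig1, a lineage factor, was abundant in both, at 2479 ± 227 CPM in MB and 2656 ± 133 in FB (SD, n = 5 each). Of 25 astrocyte and glial genes, 12 were higher in MB and 6 lower, with Sparcl1 at 1688 ± 70.2 CPM in MB and 186 ± 12.3 in FB. Of 19 radial glia and neural stem genes, 1 was higher in MB and 15 lower (median -0.71), with the matrix protein Tnc at 278 ± 20 CPM in MB and 857 ± 36.3 in FB. Of 8 cartilage genes, Col9a3 was higher in MB and Col11a1 lower, a count near the 29.6% of all genes that passed.

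Neural crest genes, a main setting of Sox10 outside the brain, were sparsely listed. Of 20 such genes, 9 were in the captured table. Between E13 and E11 1 of 5 tested rose and 0 fell, near the 20.4% of all genes that passed. Between E18 and E13 3 of 5 rose and 1 fell (47.0% of all genes passed), and between P70 and E18 2 of 4 rose and 1 fell (40.7%). The gene that fell was Ednrb, the endothelin B receptor, also of glia, with 80.3 ± 26.9 units at P70 and 217 ± 43.8 at E18. Pmp22, 1 of the 2 that rose, measured 109 ± 25.6 units at P70 and 64.4 ± 41.2 at E18. In spheres 5 of 11 tested were higher in MB and 2 lower (15.3% and 14.3% over all genes).

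The captured table held 14 other Sox genes. Between E13 and E11, 0 of 11 tested rose and Sox12 fell (20.4% of all genes passed). Between E18 and E13, 0 of 9 rose and Sox11, Sox3 and Sox4 fell (47.0%). Between P70 and E18, Sox1 rose and Sox11 and Sox12 fell, out of 9 (40.7%). With so few members these counts are not set apart from those shares. Sox11, a factor of newborn neurons, averaged 206 ± 63.5 units in E11 libraries, 159 ± 62.5 in E13, 27.8 ± 4.79 in E18 and 3.45 ± 1.30 in P70 libraries. Sox2, the stem cell factor, averaged 58.2 ± 18.5, 47.6 ± 13.9, 69.4 ± 17.8 and 96.2 ± 34.9 units at these ages and did not pass between neighbouring ages. Sox6, a SoxD partner of Sox9 in cartilage, averaged 7.11 ± 2.67 units at P70 and 6.37 ± 2.06 at E18. Between P70 and E11, 2 of 10 tested rose and 4 fell, near the 24.5% higher and 40.1% lower of all genes. Those that rose were Sox2 (log2 difference 0.67, limma adjusted p = 0.0386) and Sox6 (0.64, limma adjusted p = 0.0324). In spheres 1 of 10 tested passed, Sox11, which was lower in MB (29.6% of all genes passed).

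Markers of other cells that a capture can hold were counted between P70 and E18, where 16.8% of all genes were higher and 23.9% lower. The motile cilia and ependymal list counted 18 up and 2 down of 28, the microglia list 5 up and 0 down of 14, and the mature neuron list 2 up and 6 down of 20. Endothelial genes counted 1 up and 1 down of 7, fibroblast genes 1 up and 1 down of 3, proneural genes 0 up and 9 down of 13, cell cycle genes 1 up and 6 down of 15 and floor plate genes 0 up and 7 down of 14. The number that passed in either direction in the microglia, mature neuron, endothelial and cell cycle lists was near the 40.7% of all genes. That number is thus no result about those lists, and their split by direction was not tested. Listed only at P70 and only at E18 were 1 and 0 microglia genes and 0 and 0 mature neuron genes. For endothelial genes these counts were 4 and 4, and for cell cycle genes 0 and 5. Over all genes, 13291 were listed at P70, 13340 at E18 and 12353 at both. The ciliary list summed to 22209 to 34383 units at P70 and 9191 to 12829 at E18, without overlap, and the astrocyte list to 9138 to 12082 units at P70 and 5628 to 7697 at E18. The microglial list summed to 512 to 697 units at P70 and 147 to 670 at E18. The part of any of these cells in the levels of Sox9, Sox8 and Sox10 was not tested.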

How the data were processed

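RNA was made into cDNA by Smart-seq2 with Tn5 libraries, per the labels' protocols, a method without molecular identifiers, so counting error covers reads only. STAR 2.3, Salmon 1.6.0 and DESeq2 1.34.0 are named without a role per the submitters' processing notes. The captured values that the authors deposited have no stated unit. Their low values are whole multiples of a step per gene and library, as in RPKM (309 of 400 low genes tried, 77.25%, within 0.01 reads of a whole number), which gave the recovered reads. Of 15139 lines, 142 with repeated symbols were left out. The authors deposited whole-number counts for the spheres.

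For the captured cells limma 3.58.1 (R 4.3.3) was fitted to log2(value + 1), a scale that understates changes of low genes, with a variance trend, a mean for each age and the 20 libraries together. Sphere counts were tested with the edgeR 4.0.16 quasi-likelihood test after TMM scaling and filterByExpr. Each comparison's p-values were Benjamini-Hochberg adjusted across its tested genes, at a threshold of 0.05. Ratios were compared by exact two-sided permutation tests (scipy 1.17.1). Likeness is Pearson's r after removing group means. Genes named for likeness had the 8 highest and 4 lowest r with Sox9, the 5 highest with Sox8 and Sox10 and the 6 highest in spheres, among genes averaging 5 or more units (10 or more CPM) with no clone, predicted, mitochondrial, ribosomal or pseudogene name. A few genes that these rules would name are not reported here; they stayed in the fits, ranks and list counts. From 14 gene lists, up to 4 members with the smallest p were eligible to be named; other listed genes that are named, such as Olig1, Pdgfra and Sox2, were chosen after their values were seen. The members and lists were chosen with earlier results of these data known. DESeq2 1.42.0 served as an alternative for the spheres. The tests were checked on simulated data. Equal replicate numbers did not mark pairs.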

Additional observations from a re-analysis of the deposited data

Results flagged for a closer look

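Sox10 in MB replicate 4 stood at 11.1 CPM, far from the other 4 MB libraries, the nearest of which held 4.04 CPM. Its gap to that library, as a share of the range of the 5 libraries, was 0.915, against a limit of 0.71. The oligodendrocyte list summed to 3805 CPM in this library, within the 3609 to 4251 CPM of the other MB libraries. In all 15 groups of libraries were examined for such gaps, and chance marks about 1 in 20.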

How the results depend on the processing

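Among the member differences, the ratios and the counts of called genes, 287 values under alternative settings kept their direction and their side of the threshold, or for counts stayed close to the value reported; the correlations with Sox9 are not in that number. Sox9 in E13 against E11 lost its call after quantile normalization (0.81) and with a replicate block (0.84), and ranged from 0.67 to 1.00 when each library was left out in turn. Sox9 in E18 against E13 passed after quantile normalization (0.84). The sphere differences of the members that did not pass changed sign: Sox8 stood at -0.00411 with the replicate block and ranged from -0.15 to 0.11 with 1 library left out, and Sox10 stood at -0.0684 with the block and ranged from -0.46 to 0.18. The count of genes past the threshold in E13 against E11 was 2364, against 3811 with a fit of these ages only and 4836 with a weight per library. The cause was not tested. Same-numbered libraries did not deviate together (r of -0.148 to 0.250 between ages and -0.0118 to 0.0425 in spheres), so the block is not read as a pairing. Sox8 and Sox10 at P70 rest on 22 to 47 and 8 to 50 reads a library, which limits what their levels can show.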
